A study of Homo sapiens with 4 samples.

Results

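Sodium bicarbonate added to sparse cultures of H9, an established line of human embryonic stem cells, was compared with unmodified medium across 8973 genes. A gene was included when its brightest probe had a detection p-value under 0.01 on both low-density arrays, out of 10457 genes with a detected probe on at least 1 of the 4 arrays of the study. Of the remaining genes, the chosen probe of 222 was detected with bicarbonate alone, that of 553 in the control alone and that of 709 on neither low-density array. All cells were H9 kept in E8, a defined serum-free medium, on a basement membrane matrix, and total RNA was taken on day 2. The groups were low density (under 70% confluence) with 20 mM added bicarbonate, low density in plain E8, high density (over 90% confluence) with 20 mM added bicarbonate, and high density in plain E8. Each group was 1 Illumina expression array of 1 sample. The differences below therefore rest on single arrays without replicates, and none was tested. A difference is that of normalized log2 intensity, bicarbonate minus control, so that 1 is 2-fold and 0.58 is 1.5-fold, and a level is a normalized log2 intensity of 1 array.

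Bicarbonate and dissolved carbon dioxide form the main pH buffer of culture medium, and added bicarbonate takes up acid that cells release. Pluripotent stem cells ferment much of their glucose to lactic acid, which acidifies the medium faster as a culture becomes dense. The title of the series concerns holding back this acidification in dense cultures. The sparse cultures show the same addition where fewer cells share the medium.

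The 2 low-density arrays were alike in overall signal. Of 47293 probes, 14128 were detected with bicarbonate and 14878 in the control, and the median intensity before normalization was 153.5 with bicarbonate and 166.6 in the control. Normalization compensates for this gap in brightness. Of 30 genes of the undifferentiated state with a probe, 25 were detected with bicarbonate and 28 in the control, and DPPA2 and DPPA3 were detected on neither. SOX2 stood at 11.99 with bicarbonate and 11.73 in the control, NANOG at 10.16 and 9.90, and POU5F1 at 11.05 and 11.55, in the same order. These 3 core pluripotency factors were thus bright on both arrays, and their differences of 0.26 (NANOG), 0.27 (SOX2) and -0.50 (POU5F1) were all under 1.5-fold. Markers of other cell types were mostly undetected, including SOX17 of endoderm, TBXT of primitive streak, PAX6 of neuroectoderm, CDX2 of trophoblast and PTPRC of blood. The lists gave 2 of 13 endoderm genes detected on each array, 1 of 12 streak and mesoderm genes, 6 of 17 neuroectoderm genes with bicarbonate and 7 in the control, 0 of 12 trophoblast genes, 6 of 15 fibroblast genes with bicarbonate and 8 in the control, and 2 of 13 blood and endothelial genes with bicarbonate and 1 in the control. Before normalization, the summed intensity of the detected lists was 1619 with bicarbonate and 1181 in the control for endoderm. In the same order, the sums were 11348 and 14236 for neuroectoderm and 8794 and 10869 for fibroblasts. The genes of the undifferentiated state also summed lower on the dimmer bicarbonate array, at 97700 against 105279. THY1, which is on that list too, gave 4641 and 5911.4 of the fibroblast sums. The part of any cells of other types in the differences below was not tested. In such bulk samples, fewer cells of a type and less RNA per cell cannot be told apart.

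Few genes lay far apart with bicarbonate at low density. Of the 8973 measured genes, 8 were at least 2-fold higher, which is 0.0892% of all, and 9 were at least 2-fold lower, which is 0.1%. At a limit of 1.5-fold 201 genes were higher (2.24%) and 133 lower (1.48%), or 3.72% in either direction. The middle 95% of genes lay between -0.51 and 0.57, and the median was 0.03. Bicarbonate at high density, measured on 2 other arrays, spread genes more widely. Those arrays also lay farther apart in median intensity before normalization, at 117.4 with bicarbonate and 162.7 in the control. The part of this gap in the wider spread was not tested. There 103 of 9188 genes were at least 2-fold apart (1.12%), 48 higher (0.522%) and 55 lower (0.599%). At 1.5-fold 824 were apart (8.97%), 413 higher (4.49%) and 411 lower (4.47%). The standard deviation over genes was 0.35, against 0.27 at low density. The split between directions at low density rested on the scaling. With the medians of the arrays set equal in place of all quantiles, the median measured gene stood at -0.11 and the counts at 1.5-fold became 52 higher and 464 lower, or 10.1% of these higher against 60.2% before. With the genes ordered by level into 5 equal bins, the share at least 1.5-fold apart was 5.85% in the dimmest bin, 6.35% in the next, then 3.40% and 2.12%, and 0.89% in the brightest.

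**Figure D1:**
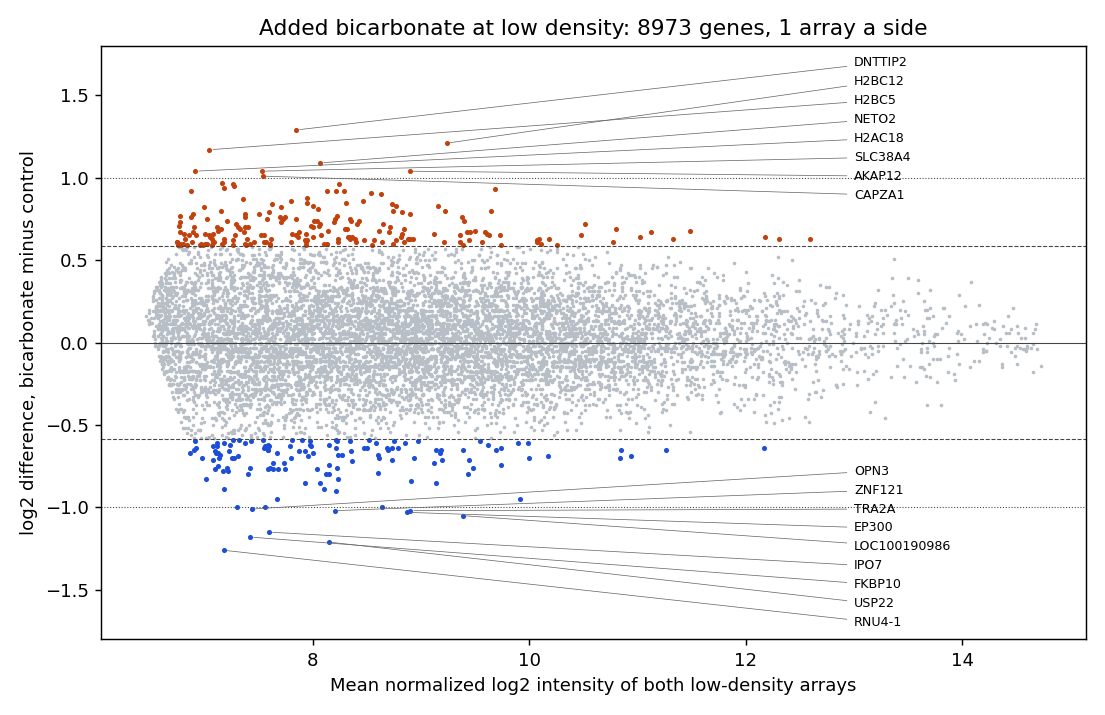
Each point is 1 of 8973 genes, with the mean normalized log2 intensity of both low-density arrays on the horizontal axis and the log2 difference, bicarbonate minus control, on the vertical axis. Orange points are at least 1.5-fold higher and blue points at least 1.5-fold lower (dashed lines), dotted lines mark 2-fold, and the 17 genes past 2-fold are named, nearly all of them left of the brightest genes.

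The genes that stood highest with bicarbonate included factors of the nucleolus, chromatin, amino acid transport and the cytoskeleton. DNTTIP2, a nucleolar protein of ribosome assembly, had a level of 8.49 with bicarbonate and 7.20 in the control, a difference of 1.29 or 2.44-fold, on intensities of 456.7 and 304.2. Its levels at high density were 6.87 with bicarbonate and 7.16 in the control, so that only the bicarbonate array at low density stood apart. The histone H2B gene H2BC12 followed at 9.84 with bicarbonate and 8.63 in the control (difference 1.21), and a second histone H2B gene, H2BC5, at 7.63 and 6.46 (difference 1.17). NETO2, an auxiliary subunit of kainate receptors, stood at 8.62 with bicarbonate and 7.52 in the control (1.09). SLC38A4, a carrier of small neutral amino acids, stood at 8.05 with bicarbonate and 7.01 in the control (1.04), but its control level at high density, 7.81, lay close to the bicarbonate level at low density. The histone H2A gene H2AC18 (1.04), the kinase scaffold AKAP12 (1.04) and the actin capping subunit CAPZA1 (1.01) completed the genes past 2-fold. Just under that limit came the tubulin TUBD1 (0.97), the microtubule-severing enzyme SPAST (0.96), the transcriptional coactivator CCAR1 (0.96), the small nucleolar RNA SNORD36C (0.94), the endoderm factor FOXA2 (0.93) and TEAD3, a DNA-binding partner of YAP (0.92). For SLC38A4, AKAP12, CAPZA1, TUBD1 and TEAD3 the low-density control lay below the other 3 arrays, as the plot of the leading genes shows. Several of the higher genes were closer before normalization. TEAD3, with a normalized fold of 1.90, had an intensity of 267.9 with bicarbonate and 227.0 in the control. In the same order TUBD1 had 304.6 and 247.8, and CAPZA1 had 368.0 and 284.4. Much of the differences of these genes thus came with the scaling and background steps.

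The genes that stood lowest with bicarbonate included regulators of chromatin, splicing, nuclear transport and collagen folding. RNU4-1, the U4 RNA of the spliceosome, had a level of 6.54 with bicarbonate and 7.81 in the control (difference -1.26). Its levels at high density were 8.17 with bicarbonate and 8.37 in the control, above both low-density arrays. USP22, the deubiquitinase of the SAGA coactivator complex, stood at 7.54 with bicarbonate and 8.75 in the control (-1.21), on intensities of 291.1 and 640.6. FKBP10, a chaperone of collagen in the endoplasmic reticulum, stood at 6.83 with bicarbonate and 8.01 in the control (-1.18), while at high density it stood at 7.52 with bicarbonate and 6.49 in the control. IPO7, an import receptor for ribosomal proteins and histones, stood at 7.02 with bicarbonate and 8.17 in the control (-1.15), and here the bicarbonate array at low density was the lowest of all 4. The same held for the histone acetyltransferase EP300 (-1.03), at 8.35 with bicarbonate and 9.39 in the control, and for the splicing activator TRA2A (-1.02), at 8.39 and 9.41. LOC100190986 (-1.05), the zinc finger gene ZNF121 (-1.02) and the opsin OPN3 (-1.01) were also past 2-fold. Just under the limit lay the transfer RNA exporter XPOT, at 6.80 with bicarbonate and 7.80 in the control, the thioesterase LYPLA1, at 8.14 and 9.13, and the calcium pump ATP2B4, at 7.06 and 8.06. DFFA, the inhibitor of the apoptotic nuclease, stood at -0.95, the chromatin-associated DIDO1 at -0.95 and CRTAP, a partner of collagen prolyl hydroxylation, at -0.90.

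**Figure D2:**
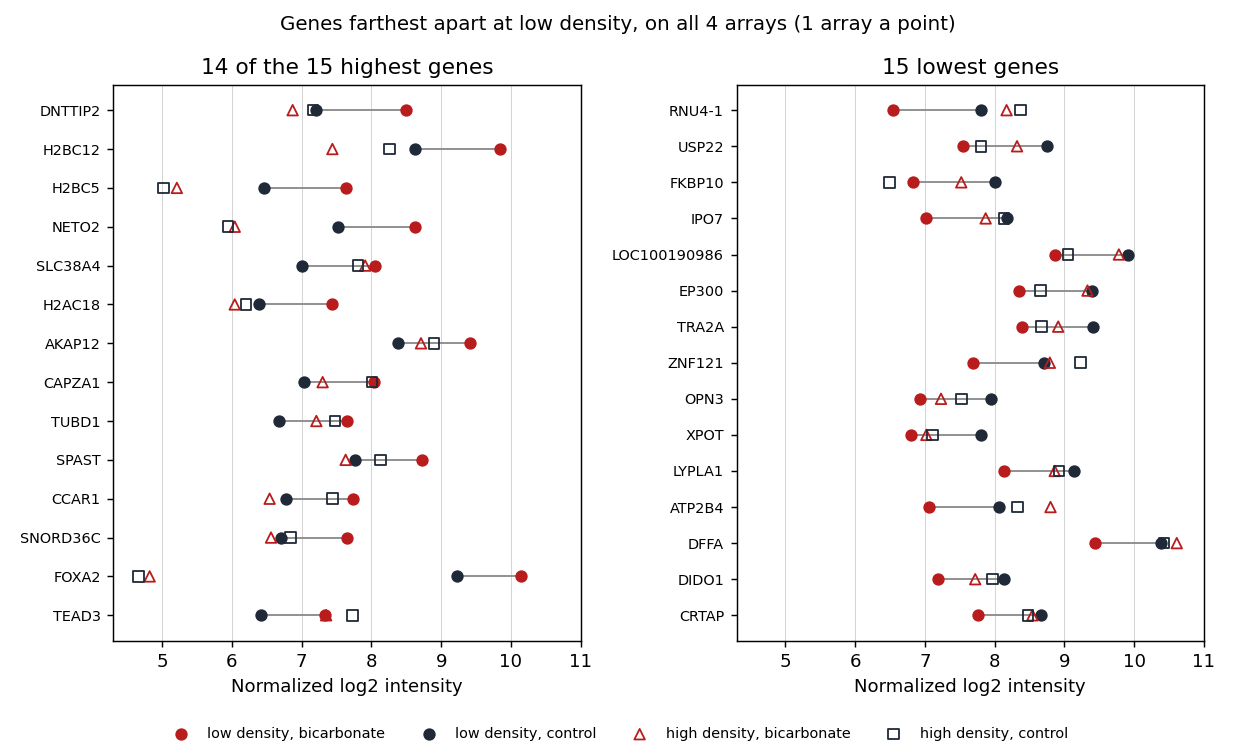
Normalized log2 intensity of 14 of the 15 highest (left) and the 15 lowest genes (right) at low density, with 1 point per array. Filled red circles are low density with bicarbonate, filled black circles the low-density control, open red triangles high density with bicarbonate and open black squares the high-density control; for DNTTIP2 and DFFA the filled red circle alone stands apart, while for TEAD3 the filled black circle does.

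Some genes were detected on 1 of the low-density arrays only, and for these the difference is a bound against the weakest detected signal of the other array, or against the gene's own signal there where that was higher. SNRPE, a core protein of spliceosomal particles, was at least 2.08-fold higher with bicarbonate, and TSN and ZNG1A followed at 1.99-fold and 1.98-fold or more. The probe of RNA28SN5, the large ribosomal RNA, read at least 2.93-fold lower with bicarbonate. It stood at 8.08 in the control and was undetected with bicarbonate. Whether this signal, or that of RNU4-1 above, follows the amount of the RNA itself was not tested. The neuronal pentraxin NPTX1 was at least 2.20-fold lower and the chromatin remodeller ATRX at least 2.15-fold lower. Bounds of at least 2-fold were reached by 1 of 220 such genes in the higher direction and by 4 of 546 in the lower.

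Of the 8 genes at least 2-fold higher, 3 encode histones. Histones package DNA, and the genes of the main forms lie in clusters, are used in S phase and give messages that end in a stem-loop in place of a poly(A) tail. Of 82 histone genes with a probe, 25 were measured, of which 5 were at least 1.5-fold higher and 0 lower, with a median of 0.25, beside 2.24% higher and a median of 0.03 over all genes. Behind H2BC12, H2BC5 and H2AC18 came H2AC19, at 7.30 with bicarbonate and 6.70 in the control (0.60), and H3C7, at 7.05 and 6.46 (0.59). The 16 cluster genes, set apart with their values already known, gave a median of 0.40, with 14 above 0 and 2 below, from -0.13 (H3C13) to 1.21. The other 9 had a median of -0.02, with 4 above 0 and 5 below. They include replacement forms such as H2AZ1 (0.05) and H3-3B (-0.09), and also H2AX (-0.21). No cluster gene had a second detected probe. Before normalization H3C7 had an intensity of 240.4 with bicarbonate and 230.6 in the control, and H2AC19 had 263.9 and 249.7. H2BC5 had 302.9 with bicarbonate and 230.7 in the control, and H2AC18 had 278.9 and 225.8, where the normalized folds were 2.26 and 2.06. Much of the differences of all these genes thus came with the scaling and background steps, whereas the brighter H2BC12 had 1017.1 and 599.1. Of 40 measured replication genes of S phase, 1 was at least 1.5-fold lower and 0 higher, namely RRM2 of deoxynucleotide synthesis (-0.76), with a median of 0.03. Where they had a second probe, 12 of 13 stood below 0 on it, with a median of -0.26.

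The regions upstream of 4 of these histone genes are shown because they tell how separate the genes are and which elements they share. Each is the 250 bases before the RefSeq transcription start in GRCh38.p14, namely chr6:27146859-27147108 on the minus strand, chr6:26157871-26158120 on the plus strand, chr1:149842751-149843000 on the minus strand and chr1:149850811-149851060 on the plus strand. Capitals mark CCAAT, read on either strand (ATTGG on the other), and the octamer ATTTGCAT, known from histone H2B promoters and also searched on both strands (ATGCAAAT).
H2BC12: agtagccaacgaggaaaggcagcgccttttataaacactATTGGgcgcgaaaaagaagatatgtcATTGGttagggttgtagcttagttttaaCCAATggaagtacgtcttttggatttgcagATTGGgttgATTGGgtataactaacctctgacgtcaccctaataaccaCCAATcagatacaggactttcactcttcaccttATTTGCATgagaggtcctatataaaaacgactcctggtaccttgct
H2BC5: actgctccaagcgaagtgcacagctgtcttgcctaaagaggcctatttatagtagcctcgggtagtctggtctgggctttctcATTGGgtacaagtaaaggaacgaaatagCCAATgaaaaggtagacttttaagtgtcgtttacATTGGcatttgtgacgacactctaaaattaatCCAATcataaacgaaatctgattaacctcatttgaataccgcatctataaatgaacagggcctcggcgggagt
H2AC18: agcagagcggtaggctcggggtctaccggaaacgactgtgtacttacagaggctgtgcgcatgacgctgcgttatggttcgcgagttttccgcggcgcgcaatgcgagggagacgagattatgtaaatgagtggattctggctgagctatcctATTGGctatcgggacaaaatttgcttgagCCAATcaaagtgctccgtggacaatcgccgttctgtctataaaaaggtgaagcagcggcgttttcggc
H2AC19: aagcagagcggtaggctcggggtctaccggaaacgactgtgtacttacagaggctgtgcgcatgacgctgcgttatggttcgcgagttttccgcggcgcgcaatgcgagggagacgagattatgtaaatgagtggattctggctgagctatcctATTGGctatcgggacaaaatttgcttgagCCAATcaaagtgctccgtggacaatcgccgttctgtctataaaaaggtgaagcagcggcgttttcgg
H2BC12 holds 1 octamer and 6 CCAAT motifs, H2BC5 holds 0 and 4, and H2AC18 and H2AC19 each hold 0 and 2. Over all 35116 RefSeq windows of this length, 1.63% hold the octamer and 32.01% hold CCAAT. Of the 25 measured histone genes 23 matched a window, of which 5 hold the octamer and 17 hold CCAAT. The H2AC18 and H2AC19 windows, on opposite strands of the same cluster, are identical at 249 of 249 aligned bases (99.6% of the window). Those of H2BC12 and H2BC5 are identical at 141 of 236. Per aligned base they are no more alike than either is to H2AC18, at 140 of 224 for H2BC12 and 150 of 224 for H2BC5. As a share of the window, the H2BC12 and H2BC5 pair has 56.4%. Against H2AC18 the shares are 56.0% for H2BC12 and 60.0% for H2BC5. H2AC18 and H2AC19 are near-identical copies, so their probes may read the same messages, and their differences of 1.04 and 0.60 are not separate observations.

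Metallothioneins are small proteins that bind zinc and copper. Of 9 with a probe 4 were measured, 2 of them at least 1.5-fold higher and 0 lower, beside 2.24% higher over all genes, with a median of 0.66. MT1F stood at 8.37 with bicarbonate and 7.52 in the control at low density (0.85), and at 8.48 and 9.24 at high density (-0.76). MT1G stood at 8.72 with bicarbonate and 7.97 in the control at low density (0.75), and at 9.38 and 10.57 at high density (-1.19). Both genes were thus lowest in the low-density control and highest in the high-density control. MT1E (0.56) and MT1X (0.12) lay under the limit, and MT1X was dimmer with bicarbonate before normalization, at 424.8 against 485.6 in the control. Members of this family are alike enough for a probe of one to bind others.

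In most of the remaining lists, the members past 1.5-fold were few rather than whole pathways. Chromatin modifiers had 1 of 65 higher, the remodeller CHD1 (0.67), and 5 lower, beside 2.24% higher and 1.48% lower over all genes, with a median of 0.05. The lower ones were USP22, EP300, the trithorax-family protein KMT2E (-0.76, but -0.02 on its second probe), the histone demethylase KDM4B (-0.67) and SUPT20H, a further SAGA subunit (-0.64). Of the 11 modifiers with a second probe, 10 stood below 0 on it, with a median of -0.38 against 0.12 on their brightest probes, and signs agreed in 4. Second probes leaned below 0 in general, with 1089 of 1861 below 0 (58.5%) and a median of -0.06. Splicing regulators had 1 of 53 higher, RBM15 (0.63), and 4 lower, TRA2A, the epithelial factor ESRP1 (-0.68), the helicase DDX17 (-0.65) and HNRNPR (-0.64), with a median of 0.01. On its further probes HNRNPR gave -0.12 and -0.19, both under the limit. Nuclear transport receptors had 0 of 28 higher and 3 lower, IPO7, XPOT and KPNA2 (-0.65), with a median of 0.02. Amino acid transporters had 2 of 23 higher, SLC38A4 and the lysosomal arginine sensor SLC38A9 (0.92), with 0 lower and a median of -0.07. Genes of the matrix and of collagen modification had 0 of 39 higher and 3 lower, FKBP10, CRTAP and the collagen COL1A2 (-0.61, and -0.26 on its second probe), with a median of -0.13. Small nucleolar RNAs had 2 of 45 higher and 3 lower, and the near-identical SNORA73A (-0.77) and SNORA73B (-0.66) were among the lower. Zinc finger genes with ZNF names had 6 of 249 higher and 3 lower, with a median of 0.11. Small nuclear RNAs had 1 of 13 higher and 2 lower, with a median of -0.22. Genes of SRF and the actin cytoskeleton had 3 of 33 higher and 1 lower, with a median of -0.02. Of 13 endoderm genes with a probe only 2 were measured, FOXA2 (0.93) and AFP (0.66), and both were past 1.5-fold higher.

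Several lists leaned in 1 direction with few or no members past the limit. Over all genes 53.9% stood above 0, 2.24% were at least 1.5-fold higher and 1.48% at least 1.5-fold lower. NRF2 targets, which supply thioredoxin, glutathione and iron storage, had 0 of 18 genes past 1.5-fold in either direction, 15 below 0 and 3 above, and a median of -0.19. Thioredoxin reductase TXNRD1 stood at 9.76 with bicarbonate and 10.27 in the control (-0.51), and its second probe gave -0.31. Ferritin light chain FTL stood at 12.94 with bicarbonate and 13.36 in the control (-0.42, and -0.33 on the second probe), and thioredoxin TXN at 12.08 and 12.44 (-0.36, and -0.18 on the second probe). The glutamate-cysteine ligase subunit GCLM stood at -0.42 but at 0.37 on its second probe, and the haem oxygenase HMOX1 at 0.53. Of 7 NRF2 targets with a second probe, 4 stood below 0 on it and 3 above. Glycolysis and lactate genes had 0 of 27 higher and 1 lower, 21 below 0 and 6 above, with a median of -0.10. For PGAM1, phosphoglycerate mutase, the brightest probe stood at 10.94 with bicarbonate and 11.59 in the control (-0.65) and the second gave -1.16. The aldolase ALDOA gave -0.47 and -1.03 on its 2 probes, pyruvate kinase PKM -0.38, -0.45 and -0.75 on 3 probes, and triose phosphate isomerase TPI1 -0.49 and 0.32. The second probes as a whole did not lean: of 11 glycolysis genes with one, 6 stood below 0 on it and 5 above, and signs agreed in 6. Hexokinase HK2 gave -0.11 and 0.29 on its 2 probes, and phosphoglycerate kinase PGK1 gave -0.04 and 0.18. At high density the same 4 genes stood higher with bicarbonate, at 0.54 for PGAM1, 0.71 for ALDOA, 0.57 for PKM and 0.72 for TPI1. ATF4 targets of the amino acid response had 1 of 29 higher, ATF5 (0.68), and 2 lower, XPOT and VLDLR (-0.66), with 20 below 0 and a median of -0.19. Epithelial adhesion genes had 0 of 25 higher and 3 lower, with a median of -0.19. Beta-catenin CTNNB1 (-0.59, and -0.45 on the second probe) was one, whereas desmoplakin DSP gave -0.70 and 0.14. The other was ESRP1, already counted among the splicing regulators above.

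Acid-base genes differed little, like most genes. Of 33 bicarbonate transporters, proton exchangers, carbonic anhydrases and proton sensors with a probe, 13 were measured and 0 were past 1.5-fold. Over all genes 3.72% were past it, so 0 is near that share in a list this small. The median was 0.01 and the range -0.18 to 0.51. The sodium bicarbonate cotransporter SLC4A7 stood at 10.29 with bicarbonate and 10.11 in the control, the anion exchanger SLC4A2 at 8.96 and 8.84, and the cytosolic carbonic anhydrase CA2 at 7.55 and 7.04. On its brightest probe no measured gene passed 1.5-fold in either direction in the lists of p53 targets (18 genes), immediate early and FGF-ERK targets (25), heat shock (16) or endoplasmic reticulum chaperones (17), nor among mitochondrial (75) and cytosolic ribosomal proteins (69). These counts of 0 also stand beside 3.72% over all genes. The medians of these 6 lists lay between -0.02 and 0.06. Of the 8 immediate early and FGF-ERK targets with a second probe, however, 7 stood below 0 on it and 1 above. Their median was -0.34 there, against -0.12 on their brightest probes and -0.06 over all second probes. DUSP6 (-1.31) and SPRY4 (-0.59) were past 1.5-fold on their second probes. Of the 44 lists with at least 3 measured genes, 28 had a median within 0.1 of 0.

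**Figure D3:**
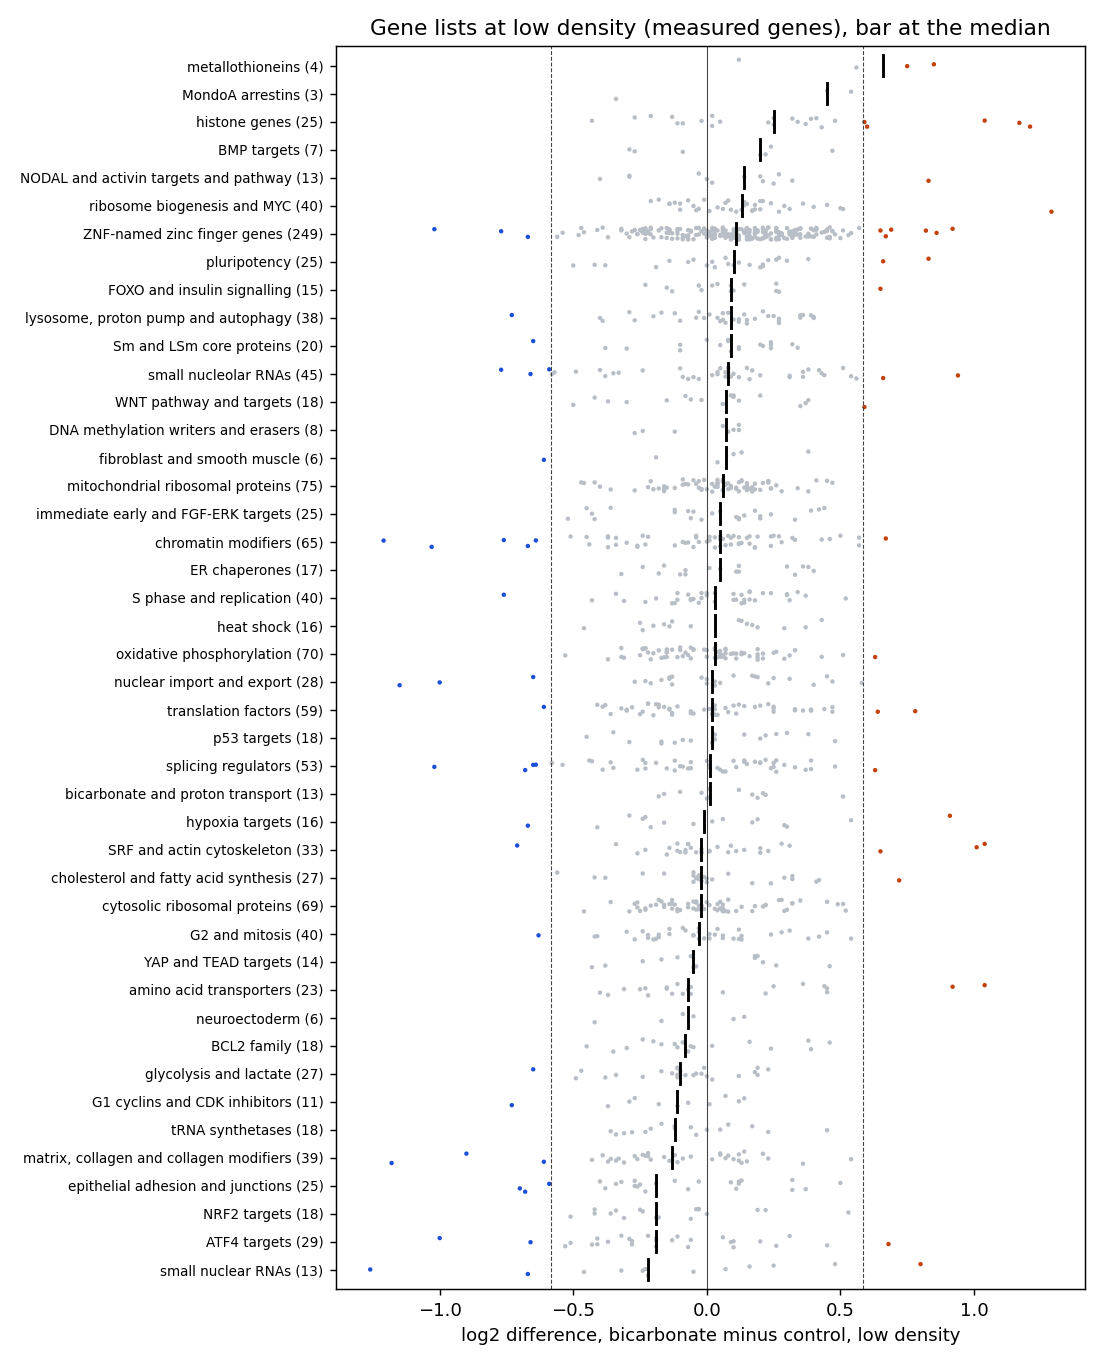
Log2 difference, bicarbonate minus control at low density, of each measured gene (points) in 44 lists, with the number of measured genes in brackets and a bar at the median. Points past the dashed lines at 1.5-fold are coloured, and most bars lie near 0, with metallothioneins and histone genes toward the top.

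Most of the genes that bicarbonate separated at high density were under 1.5-fold apart at low density. TXNIP, an inhibitor of thioredoxin, stood at 7.97 with bicarbonate and 7.52 in the control at low density (0.45), and at 6.48 and 10.98 at high density. The cell cycle inhibitor CDKN1A stood at 7.72 with bicarbonate and 8.02 in the control at low density (-0.29), and at 9.63 and 12.30 at high density. ID1, a target of BMP signals, stood at 9.12 with bicarbonate and 8.92 in the control at low density (0.20), and at 10.42 and 7.97 at high density. For CDKN1A both low-density arrays lay below both high-density arrays. TXNIP and ID1 had low-density levels between those of the high-density pair. Of 89 genes at least 2-fold apart at high density and measured in both comparisons, 79 were under 1.5-fold at low density. The other 10 were past it, 6 of these in the opposite direction and 4 in the same. That is a larger share than the 3.72% of all genes past 1.5-fold. FKBP10 was the gene past 2-fold in both, with opposite signs.

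A gene read by more than 1 probe allows a check within the same RNA, and here it was weak. Probes of a gene share RNA and array, so their agreement covers neither cultures nor arrays. Of the 1861 genes with at least 2 probes detected on both low-density arrays, the brightest and second probes had the same sign in 1011, or 54.3% (95% exact binomial interval 52.0 to 56.6%, counting error only), and their differences had a Pearson correlation across genes of 0.13. Over the 1737 of these genes with both probes detected on all 4 arrays, the correlation was 0.13 at low density and 0.46 at high density, and the signs agreed in 54.1% and 63.2%. Agreement grew with the size of the difference. Signs agreed for 52.1% of 1050 genes whose brightest probe stood under 0.2, 54.4% of 555 genes between 0.2 and 0.4, 60.4% of 187 genes between 0.4 and 0.58, and 68.1% of 69 genes past 1.5-fold. In that last group the median size was 0.66 on the brightest probe and 0.19 on the second, and the second probe was past 1.5-fold in the same direction for 5 genes and in the opposite direction for 3. Among the 30 leading genes 25 had 1 probe only. The other 5 gave 0.15 for AKAP12, 0.33 for SPAST, -0.48 for ATP2B4, -0.58 and -0.04 for DFFA and 0.39 for DIDO1 on their further probes.

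In 5 genes all detected probes stood at least 1.5-fold apart in the same direction. HMGB1, an abundant DNA-bending chromatin protein, was the single higher one, at 9.57 with bicarbonate and 8.74 in the control on its brightest probe (0.83) and at 9.16 and 7.65 on its second (1.51). The lower ones were PGAM1, given above, and NCKAP1, a subunit of the actin-nucleating WAVE complex, at -0.65 and -1.47. MIR124-1HG, the host transcript of a neuronal microRNA, stood at -0.64 and -0.87. SNORA73B, a small nucleolar RNA that guides ribosomal RNA processing, stood at -0.66 and -0.86. At high density HMGB1 stood at -0.61 and -0.97 on the same probes, opposite to low density on both. Other genes went against themselves, such as the cell cycle inhibitor CDKN1B at -0.73 and 0.98, the hypoxia factor HIF1A at 0.54, -0.83 and -0.76, and KPNA2 at -0.65 and 0.42.

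**Figure D4:**
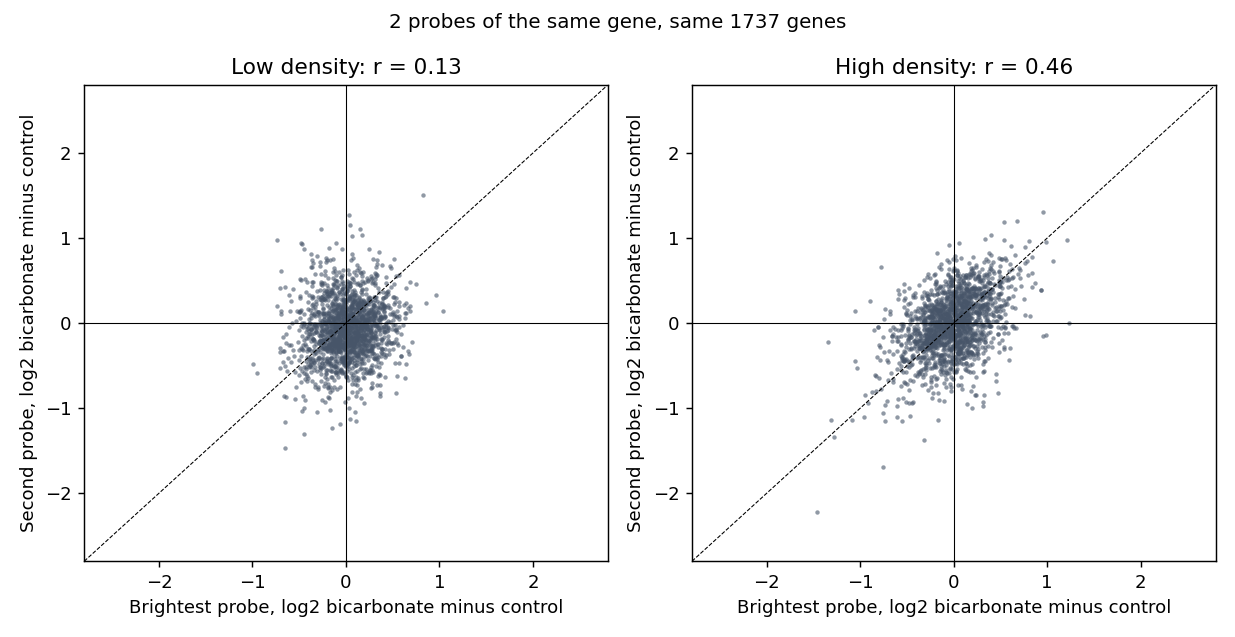
Log2 difference, bicarbonate minus control, on the brightest (horizontal) and second probe (vertical) of 1737 genes with both probes detected on all 4 arrays, at low density (left) and high density (right). The dashed line marks equal values, and the cloud lies along it at high density (r = 0.46) and hardly at low density (r = 0.13).

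Bicarbonate differences at low density ran against those at high density when read on the same probe, although the comparisons have no array in common beyond being normalized together. Over 8554 genes measured in both, the Pearson correlation across genes was -0.24, and it was -0.16 for genes under a mean log2 level of 8, -0.25 from 8 to 10 and -0.35 above 10. Of the genes at least 1.5-fold higher at low density, 169 were measured at high density, where 129 stood below 0 and 40 above, with a median of -0.26. Of those at least 1.5-fold lower at low density, 130 were measured at high density, where 94 stood above 0 and 36 below, with a median of 0.20. When the densities were read on different probes of the same 1737 genes, the opposition was not seen. The correlation on the brightest probe was -0.29, but 0.02 with low density on the brightest and high density on the second probe, and -0.02 the other way round.

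**Figure D5:**
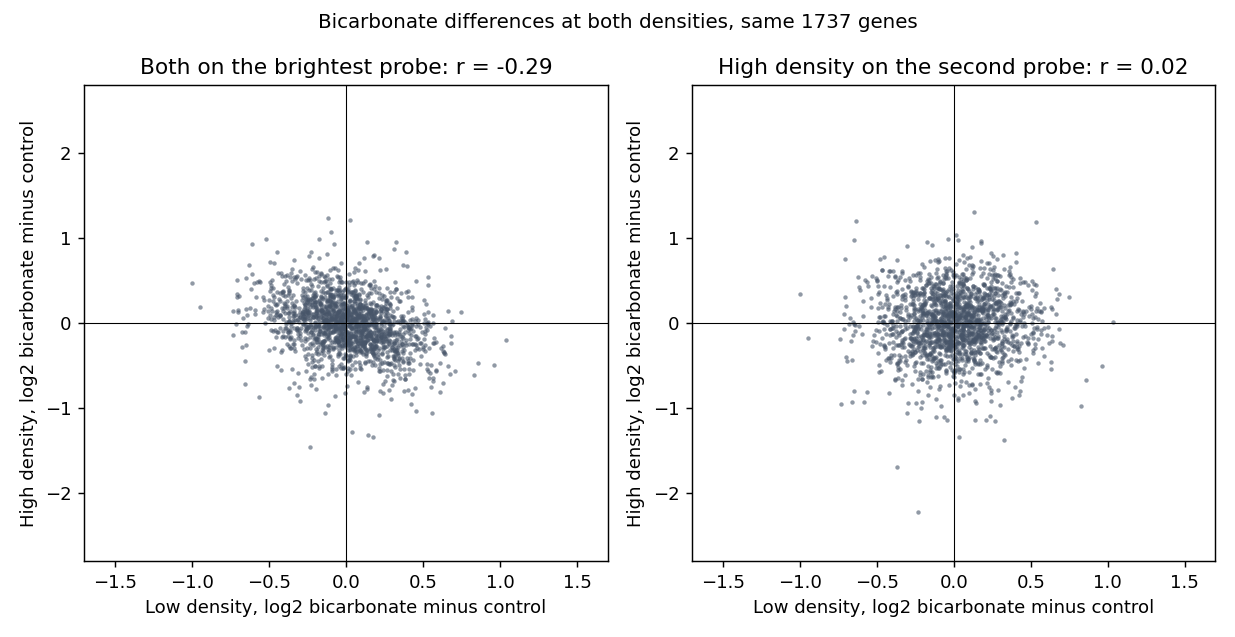
Log2 difference, bicarbonate minus control, at low density (horizontal, brightest probe) and at high density (vertical) for the same 1737 genes, with high density read on the brightest probe (left) or on the second probe (right). The cloud tilts downward on the same probe (r = -0.29) and has no tilt across probes (r = 0.02).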

How the data were processed

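Total RNA was labelled with biotin through a kit for Illumina BeadChips, per the labels' protocols. The deposited table holds 1 unnormalized probe intensity per array and a deposited detection p-value, whose steps fit 770 negative controls, per the file headers and values. The authors also deposited log2 values of the same arrays, and how these were made is not given in the sources used here.

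Background correction and quantile normalization ran over all 4 arrays in R 4.3.3 (neqc, limma 3.58.1), with an offset of 16, which removes any change common to all genes. The steps were tested on simulated data. Later steps used Python 3.11.15 with scipy 1.17.1, pandas 2.3.3, numpy 2.4.6 and, for plots, matplotlib 3.10.9. Of 47293 probes, the platform annotation gives 30098 a single gene symbol, 8 several and 17187 none. A gene was read on its brightest probe, by mean log2 level over 4 arrays. With 1 array a group no test was run, and the number of arrays limits the precision.

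The named genes are the 15 highest and 15 lowest, genes whose probes all pass 1.5-fold, the 3 largest bounds each way, and up to 4 members of each of 48 lists with the largest differences. Of the 15 highest, 1 is not reported here. Other members named in the text were chosen after their values were seen. The comparison, lists and rule were chosen with earlier results of these data known.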

Additional observations from a re-analysis of the deposited data

Results flagged for a closer look

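Past 1.5-fold upward at low density were 169 genes also measured at high density, where 29 passed this limit downward and 6 upward. Another 130 were past it downward at low density, and in dense cultures 16 of them passed it upward and 8 downward. Named genes were chosen in part for large differences at low density. Among 188 named genes, 15 stood at least 1.5-fold apart in opposite directions at low and at high density, and these differences between densities were not tested. The log2 differences were 1.21 at low density and -0.82 at high density for H2BC12, 1.01 and -0.71 for CAPZA1, 0.96 and -0.90 for CCAR1, 0.83 and -0.61 for HMGB1, and 0.63 and -0.71 for UQCRH. They were 0.85 at low density and -0.76 at high density for MT1F, 0.75 and -1.19 for MT1G, 0.80 and -1.47 for RPPH1, and 0.65 and -1.67 for ACTA1. With the signs the other way they were -1.18 at low density and 1.03 at high density for FKBP10, -1.05 and 0.73 for LOC100190986, -1.03 and 0.67 for EP300, -0.67 and 0.77 for KDM4B, -0.61 and 0.93 for EIF5, and -0.76 and 0.83 for KMT2E. Of the 15 genes, 4 have a second detected probe. It gave 1.51 at low density and -0.97 at high density for HMGB1, but 0.06 and -0.46 for UQCRH, -0.02 and 0.53 for KMT2E, and 0.33 and 0.39 for EIF5, so that the opposition past 1.5-fold was seen on both probes for HMGB1 alone.

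Probes without a gene name were not part of the comparison. Of 2581 such probes detected on both low-density arrays, 24 were at least 2-fold apart (0.93%), 14 higher and 10 lower with bicarbonate. For genes with a name, 17 of 8973 were 2-fold apart on the brightest probe and 21 of 1861 on the second. The unnamed probes were not picked by brightness, so their share is not like that of brightest probes.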

How the results depend on the processing

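No paired analysis was possible because each group has 1 array. The counts of genes moved by over 1.5 times under most of the alternatives. At 2-fold, 8 genes were higher and 9 lower. The authors' log2 values gave 4 and 4 (8 in all), no background correction 0 and 0 (0 in all), equal medians 2 and 33 (35 in all), a detection p-value under 0.05 21 and 23 (44 in all), and a mean log2 level of at least 8 gave 3 and 5 (8 in all). At 1.5-fold, 201 were higher and 133 lower. No background correction gave 36 and 28 (64 in all), equal medians 52 and 464 (516 in all), a detection p-value under 0.05 321 and 247 (568 in all), and a mean log2 level of at least 8 gave 99 and 67 (166 in all). The second probe gave 60 higher and 104 lower (164 in all) among only 1861 genes. Its share past 1.5-fold was thus larger, at 8.81% against 3.72%. Of these, 36.6% were higher, against 60.2% in the main setting. With equal medians taken relative to the median gene, an alternative chosen after seeing the data, 5 were 2-fold higher and 208 were 1.5-fold lower. Fewer genes enter with the level filter and the second probe. More genes, 11111, enter with a detection p-value under 0.05, where 5.11% were past 1.5-fold. The causes of the changed counts and shares were not tested. Probe signs agreed in 58.7% with equal medians. Of the 30 leading genes, 21 stayed past 1.5-fold in the same direction without background correction and all 30 with the authors' values, but 0 of the 5 with a second probe did on that probe. Differences turned on the second probe to 0.39 for DIDO1, 0.33 for EIF5, 0.98 for CDKN1B, 0.42 for KPNA2 and 0.14 for DSP, and CDKN1B to 0.12 as a mean of its probes. With a mean log2 level of at least 8 the list medians turned to 0.01 for small nuclear RNAs (-0.22 in the main setting) and to -0.03 for BMP targets (0.20).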

Other observations

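Other genes with more than 1 probe had the same sign on each at low density without all passing 1.5-fold, though the sizes could differ between probes. The translation factor EIF4E stood at 0.64 and 0.41, the respiratory subunit UQCR10 at 0.51, 0.22 and 0.65, and OTX2, a factor of primed pluripotency, at 0.66 and 0.30. The ERK phosphatase DUSP6 stood at -0.45 and -1.31, the ERK inhibitor SPRY4 at -0.43 and -0.59, and the helicase subunit MCM4 at -0.43 and -0.54. FOXA2 had a level of 10.15 with bicarbonate and 9.22 in the control at low density and was not detected at high density, at 4.82 with bicarbonate and 4.66 in the control.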
